A study of Mus musculus with 6 samples.

Results

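Histone lysine methyltransferases (writers) and the Kdm demethylases (erasers) were followed in RNA sequencing of mouse lung endothelial cells. The members were all protein-coding genes of the table whose symbols belong to the Kmt, Setd, Setdb, Ezh, Nsd, Suv39h, Ehmt and Dot1l writers or to the Kdm erasers. There were 46 of them among 18956 genes in all, 28 writers and 18 erasers. The cells came in 2 groups of 3 libraries. The labels call one group WT, without Cre (WT 1 to 3), and the other CSE-KO, with Cre (CSE-KO 1 to 3). CSE is cystathionine gamma-lyase, an enzyme of cysteine metabolism encoded by Cth. The sources used here do not give the promoter driving Cre, which exons were deleted, or the strain, sex and age of the mice. They also do not say if the 3 libraries of a group came from separate animals. P-values therefore rest on how much these libraries vary among themselves, which may be technical. Values per library are given in the order WT 1, 2 and 3 against CSE-KO 1, 2 and 3, in normalized counts, that is read counts scaled to a common level.

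Writers place 1 to 3 methyl groups on histone lysines with S-adenosylmethionine as the donor, and erasers take them off. The Kdm1 erasers use a flavin cofactor, while all other Kdm erasers are JmjC enzymes that need iron, oxygen and 2-oxoglutarate. Sites are named by histone and lysine. Methylation at H3K4 marks promoters and enhancers, at H3K36 and H3K79 the bodies of transcribed genes, at H3K27 genes silenced by Polycomb, and at H3K9 and H4K20 compact heterochromatin. In endothelium these enzymes are known for parts in vessel growth and in keeping cell identity.

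Totals per library were between 5698922 and 6052275 normalized counts and were lower in each CSE-KO library than in any WT library. Cth itself was at 29, 27 and 26 against 49, 43 and 63 (log2 fold change 0.89, SE 0.18, adjusted p = 0.00079; here and below the p is from limma, a linear model fitted over all genes, and adjusted over all genes tested). Each CSE-KO library lay above all WT libraries, which goes against the label. A sum over the whole gene also counts exons outside a deletion, so it does not check the label. Directions below are those of the labels. All 46 members were above 0 in every library, and 45 passed the filter on low values. Between pairs of libraries, the squared difference over the sum of the values averages 1 under pure counting noise if the values are unscaled counts. The scale of these values is not known, so 1 is only a rough reference. This index was between 0.704 and 0.754 for WT pairs and 0.863 for CSE-KO 2 and 3 over 13425 genes. By that rough reference these libraries were about as alike as repeat counts of a single sample. Over the 45 members, CSE-KO 2 and 3 differed by more (2.06), and pairs with CSE-KO 1 stood at 1.65 and 1.94 over all genes. The endothelial marker Cdh5 was at 2849, 2815 and 2823 against 2678, 2676 and 2666, and Pecam1 at 2340, 2299 and 2302 against 1875, 1877 and 1886. Of 13 endothelial markers, 11 fell and the other 2 did not pass, with sums between 18767 and 19111 in WT and between 12615 and 13355 in CSE-KO. Falls of at least 2-fold were called in 4, namely Flt1 (log2 fold change −1.92), Tek (−1.57), Cldn5 (−1.54) and Kdr (−1.13). The markers highest in WT fell by less, namely Cdh5 (−0.08), Eng (−0.38) and Pecam1 (−0.30). The sums therefore understate the falls of those 4. Of 15 macrophage markers tested, 13 rose and 1 fell, with sums between 1051 and 1096 in WT and between 1638 and 1872 in CSE-KO. Most of the WT sum was Cd14, the 1 that fell, at 788, 775 and 775 against 315, 216 and 187. The sums therefore understate the rise of the other markers. Lyz2 was at 23, 33 and 37 against 408, 466 and 439, and Adgre1, Marco, Itgam and Ptprc were at 0 in all WT libraries. Of 4 mesothelial markers tested, 3 rose and 1 fell, with sums between 199 and 216 in WT and between 160 and 194 in CSE-KO. Nearly all of the WT sum was Krt7, the 1 that fell, at 206, 207 and 194 against 73, 45 and 37. The 3 that rose were Msln at 1, 4 and 3 against 52, 51 and 60, Upk3b at 1, 1 and 1 against 28, 43 and 47, and Wt1 at 2, 1 and 1 against 18, 16 and 40. Of 10 fibroblast and mural markers tested, 4 rose (Acta2, Dcn, Tagln and Myh11) and 3 fell (Pdgfrb, Col3a1 and Cspg4), with sums between 2120 and 2211 in WT and between 2587 and 2995 in CSE-KO. Of 4 epithelial markers tested, Krt19 rose from 188, 182 and 186 to 524, 563 and 562 and Krt8, Krt18 and Ager did not pass, with sums between 468 and 509 in WT and between 802 and 845 in CSE-KO and with Epcam and Cdh1 at 3 or below in each library. All 18 proliferation genes fell, with sums between 16214 and 16435 in WT and between 4250 and 6367 in CSE-KO. Of all tested genes, 38.3% rose and 39.0% fell. These marker and proliferation genes differed between the same libraries as the members did, and their part in the results was not tested. In bulk RNA, fewer cells of a type and less RNA per cell cannot be told apart.

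Most writers fell in the CSE-KO libraries, erasers moved in both directions, and no tested member changed by 2-fold or more with all libraries included. Of the 45 members tested, 27 fell and 9 rose, against 39.0% and 38.3% of all 13750 tested genes. Writers made up 19 of the falls and 3 of the rises among 28 writers, while 8 of 17 erasers fell and 6 rose. The median log2 fold change was −0.28 in writers and −0.04 in erasers, beside 0.0014 in all tested genes. A change was called at an adjusted p under 0.05. It was called in 36 of 45 members (80.0%), near the 77.4% of all tested genes. A called change of at least 1.5-fold was found in 5 of 45 members (11.1%), beside 38.3% of all tested genes and 34.2% of the 11113 genes with at least 50 in at least 3 libraries. A called change of at least 2-fold was found in 22.2% of all tested genes, and the fitted change of every tested member was below it. Without CSE-KO 1, Kmt5c passed it (log2 fold change −1.03, against −0.92 with all libraries). The 5 members past 1.5-fold were writers that fell, namely Kmt5c, Kmt2e, Suv39h2, Suv39h1 and Ehmt2. No tested eraser passed 1.5-fold in either direction, and just inside and outside that limit lay Ehmt2 (log2 fold change −0.69) and Kdm4c (0.56). The groups did not overlap in 34 of 45 members, beside 80.4% of all tested genes. CSE-KO lay below WT in 26 of them and above in 8, beside 40.4% and 40.0% of all tested genes. With every library scaled to the same total, 22 members fell and 13 rose, beside 34.7% and 43.7% of all genes. Of the writers, 16 then fell and 6 rose, and the share of changed members that fell went from 75.0% to 62.9%. With WT 1 to 3 counted as 1 sample and CSE-KO 2 and 3 as 1 sample, 24 fell and 6 rose, where 59.8% of all genes changed.

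**Figure D1:**
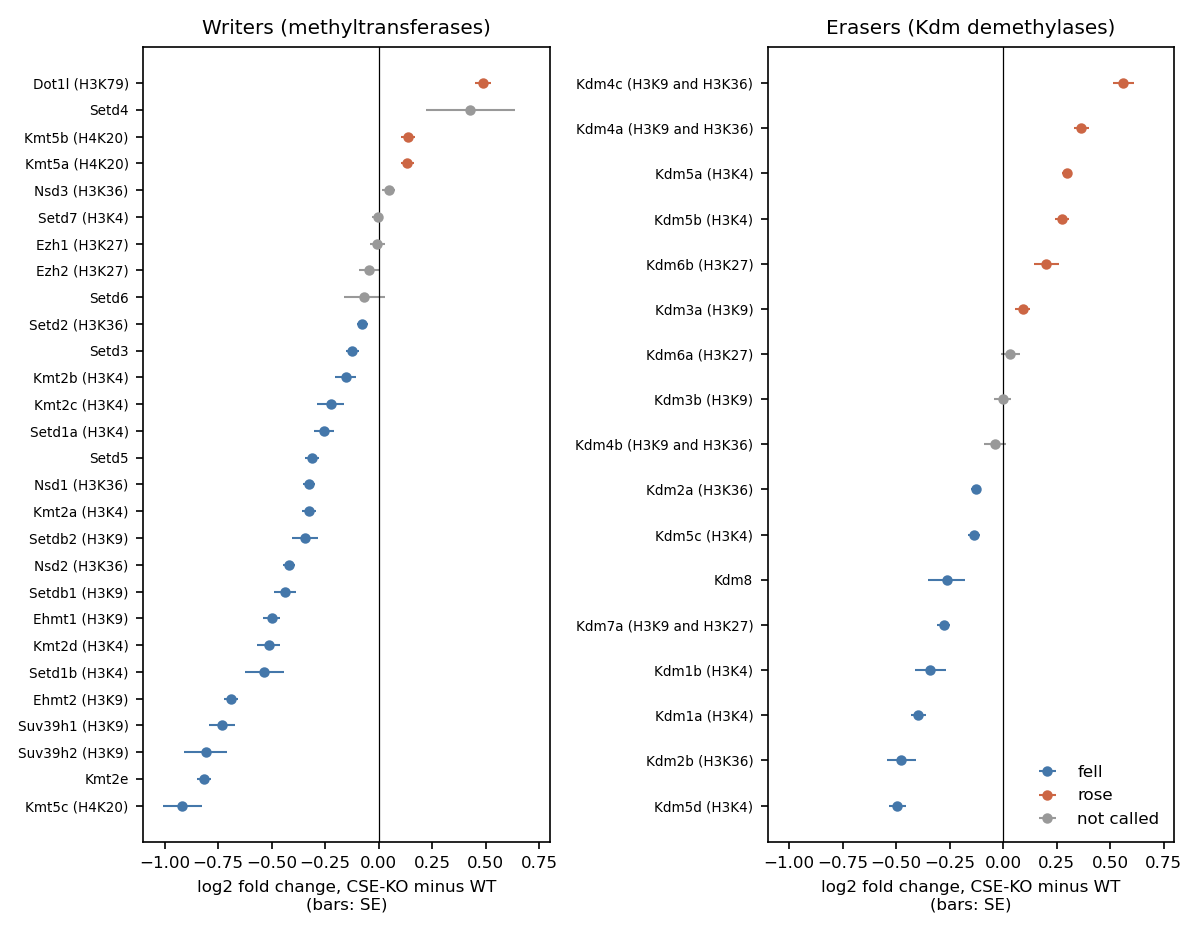
Log2 fold change (CSE-KO minus WT, horizontal axis) of the 28 writers (left) and the 17 tested erasers (right), each with its standard error and with the histone site in brackets. Blue points fell, orange points rose and grey points did not pass the test; writers reach down to −0.92 (Kmt5c), and erasers span −0.49 (Kdm5d) to 0.56 (Kdm4c).

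**Figure D2:**
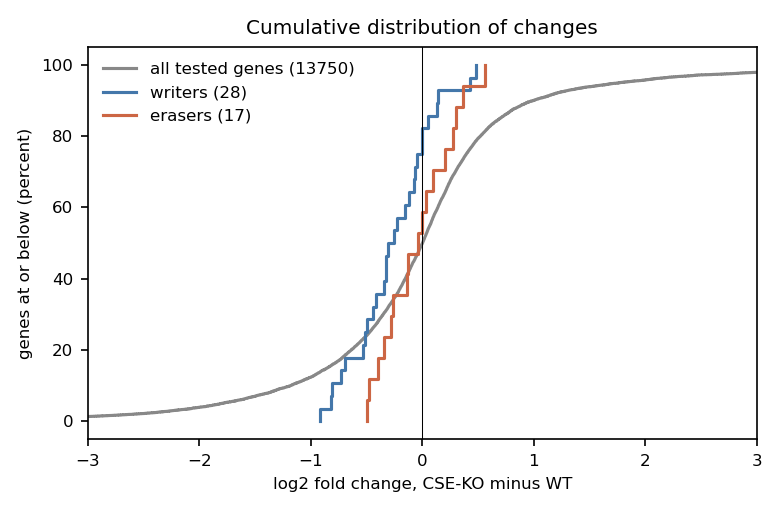
Cumulative share of genes (vertical axis, percent) at or below each log2 fold change (horizontal axis, drawn from −3 to 3) for all 13750 tested genes, 28 writers and 17 erasers. Both classes are narrower than all genes, with medians of −0.28 for writers and −0.04 for erasers.

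All 6 writers of H3K9 methylation among the members fell, beside 39.0% of all tested genes, and the 6 did so in every scaling run. Lysine methyltransferases outside the member names moved in both directions and are given at the end. Their summed normalized counts were 3595, 3584 and 3617 against 2512, 2360 and 2357, so each CSE-KO library lay between 65.5% and 69.8% of the WT mean. Suv39h1 and Suv39h2 encode the trimethylases of pericentric heterochromatin. Suv39h1 (ENSMUSG00000039231, chromosome X, 8061171 to 8074760, minus strand on mm10) was at 500, 487 and 516 against 324, 274 and 308, or 501 ± 14.5 in WT and 302 ± 25.5 in CSE-KO (SD, n = 3 each; log2 fold change −0.73, SE 0.06, adjusted p = 6.5e-07). Suv39h2 (ENSMUSG00000026646, chromosome 2, 3455815 to 3475031, minus strand) was at 157, 179 and 145 against 96, 91 and 86, or 160.3 ± 17.2 in WT and 91.0 ± 5.00 in CSE-KO (log2 fold change −0.81, SE 0.10, adjusted p = 1.7e-05). In both genes the highest CSE-KO library lay well below the lowest WT library. Exons of other genes on the opposite strand cover 14.6% of the exonic bases of Suv39h1 and 9.98% of those of Suv39h2, and the sources used here do not say whether counting used strand.

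Ehmt2 (G9a) and Ehmt1 (GLP) form the main dimethylase of H3K9 in euchromatin. Ehmt2 (ENSMUSG00000013787, chromosome 17, 34898469 to 34914052, plus strand) was at 1206, 1186 and 1186 against 779, 723 and 716, or 1193 ± 11.5 in WT and 739 ± 34.5 in CSE-KO (log2 fold change −0.69, SE 0.03, adjusted p = 1.5e-08). Ehmt1 was at 847, 871 and 862 against 625, 572 and 628 (log2 fold change −0.50, SE 0.04, adjusted p = 4.5e-07). Both partners fell. Per exonic base, Ehmt2 stood at 2.10, 2.01 and 2.03 times the level of Ehmt1 in WT and at 1.84, 1.87 and 1.69 times in CSE-KO, lower in each CSE-KO library than in any WT library. Setdb1, the trimethylase recruited by KRAB zinc finger proteins and TRIM28 to silence retroelements, was at 566, 558 and 575 against 433, 438 and 384 (log2 fold change −0.44, SE 0.05, adjusted p = 1.1e-05). Setdb2, its relative, was at 319, 303 and 333 against 255, 262 and 235 (log2 fold change −0.34, SE 0.06, adjusted p = 0.00026). The groups did not overlap in any of the 6 H3K9 writers, beside 80.4% of all tested genes. CSE-KO lay below WT in each of the 6, beside 40.4% of all tested genes.

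The sequences before the start sites of the 4 members with falls past 1.5-fold that have an entry are shown so that the elements known from cell cycle and housekeeping promoters can be located. They are from RefSeq on GRCm38.p6 and run 5′ to 3′ on the strand of the gene, up to 250 bases, ending at the start site or at the 5′ end of the gene in the deposited table, whichever comes first. Capitals mark matches on either strand to the E2F core GCGGGAA, the CCAAT box CCAAT and the GC box GGGCGG.
Suv39h1 (chrX:8074761-8075010, minus strand): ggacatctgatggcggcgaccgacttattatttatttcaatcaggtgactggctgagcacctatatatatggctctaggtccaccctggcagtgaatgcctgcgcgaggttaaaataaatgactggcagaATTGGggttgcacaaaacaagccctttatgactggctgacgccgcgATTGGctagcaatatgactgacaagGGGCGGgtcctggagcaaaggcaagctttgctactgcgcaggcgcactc
Suv39h2 (chr2:3475032-3475236, minus strand): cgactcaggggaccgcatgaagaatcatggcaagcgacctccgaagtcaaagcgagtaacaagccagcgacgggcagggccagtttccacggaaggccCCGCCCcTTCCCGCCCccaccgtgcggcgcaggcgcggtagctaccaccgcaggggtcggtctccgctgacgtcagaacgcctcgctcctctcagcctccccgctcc
Ehmt2 (chr17:34898224-34898468, plus strand): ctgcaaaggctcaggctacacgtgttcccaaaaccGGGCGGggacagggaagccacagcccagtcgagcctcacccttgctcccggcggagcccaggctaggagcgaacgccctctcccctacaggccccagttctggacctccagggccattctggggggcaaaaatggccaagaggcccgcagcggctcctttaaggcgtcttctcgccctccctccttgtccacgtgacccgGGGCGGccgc
Kmt5c (chr7:4739877-4740114, plus strand): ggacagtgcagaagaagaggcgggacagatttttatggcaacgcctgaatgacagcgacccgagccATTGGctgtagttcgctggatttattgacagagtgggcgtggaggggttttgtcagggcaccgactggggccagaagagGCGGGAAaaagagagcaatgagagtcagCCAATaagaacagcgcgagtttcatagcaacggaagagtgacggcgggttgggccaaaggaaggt

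The E2F core was found once in Suv39h2 and once in Kmt5c. Suv39h1 and Kmt5c each held 2 CCAAT boxes, Ehmt2 and Suv39h2 each 2 GC boxes, and Suv39h1 a single GC box. In the 250 bases before the start site, the E2F core was in 2 of the 35 members that have an entry (5.71%), beside 7.16% of 9764 tested protein-coding genes and 3.82% of all 32851 promoters. The CCAAT box was in 14 of 35 (40.0%), beside 36.7% and 33.8%, and the GC box in 21 of 35 (60.0%), beside 60.7% and 32.7%. For each motif the share among members was near that of tested genes. The motifs were chosen after their matches in these promoters had been seen, and a GC box can overlap an E2F core. No entry was found for Kmt2e.

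Erasers of H3K9 moved in both directions. The Kdm4 enzymes remove di- and trimethylation from H3K9 and H3K36. Kdm4c (ENSMUSG00000028397, chromosome 4, 74242497 to 74405860, plus strand) showed the largest rise among the erasers tested, from 349, 368 and 390 to 530, 536 and 567 (log2 fold change 0.56, SE 0.05, adjusted p = 1.1e-06), and Kdm4a was at 1010, 972 and 1018 against 1224, 1343 and 1296 (log2 fold change 0.36, SE 0.04, adjusted p = 2.7e-06). In both genes every CSE-KO library lay above every WT library. Kdm4b, at 499, 483 and 534 against 463, 497 and 518, did not pass (log2 fold change −0.04, SE 0.05, adjusted p = 0.53; 95% interval −0.15 to 0.08). Kdm4d, at 3, 1 and 1 against 7, 9 and 14, was below the filter on low values, and is given no fold because its WT mean is under 3 counts. With no filter on low values, Kdm4d was called as a rise. The Kdm3 enzymes remove mono- and dimethylation from H3K9. Kdm3a was at 1069, 1029 and 1109 against 1091, 1165 and 1162, with overlapping groups (log2 fold change 0.09, SE 0.04, adjusted p = 0.033), and its call was lost in 8 of the 18 alternatives, among them those without WT 1, WT 2, CSE-KO 2 or CSE-KO 3 (adjusted p between 0.0786 and 0.143). Kdm3b did not pass, at 926, 908 and 881 against 911, 855 and 945 (log2 fold change −0.0031, SE 0.04, adjusted p = 0.95; 95% interval −0.09 to 0.08), and exons of Gm26538 on the opposite strand cover 24.6% of its exonic bases. Kdm7a, which acts on H3K9 and H3K27, fell from 1060, 1131 and 1098 to 895, 901 and 916 (log2 fold change −0.28, SE 0.03, adjusted p = 6.1e-06). Summed over these 7 erasers, normalized counts came to 4916, 4892 and 5031 against 5121, 5306 and 5418. Each CSE-KO library lay above all WT libraries, while sums of the H3K9 writers lay below.

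**Figure D3:**
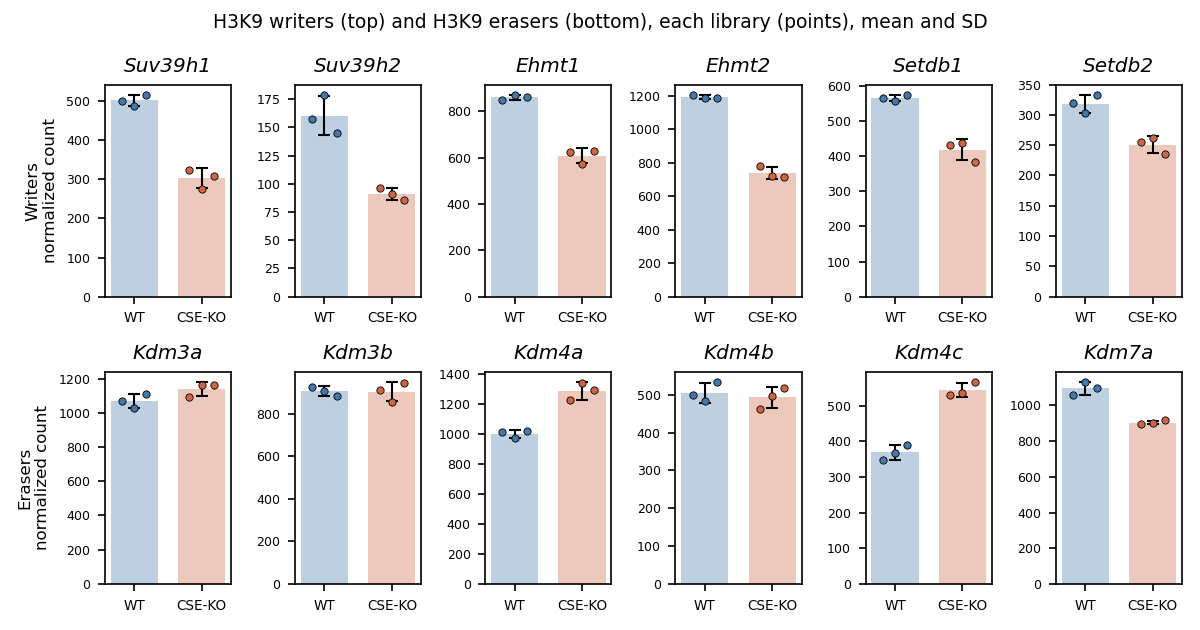
Normalized counts (vertical axes, each from 0) of the 6 H3K9 writers (top) and of 6 H3K9 erasers (bottom) in each library (points), with the group mean (bar) and SD. All top panels show CSE-KO below WT, while in the bottom row Kdm4a and Kdm4c are above WT, Kdm7a is below and Kdm3a, Kdm3b and Kdm4b overlap.

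Partners and readers of the H3K9 writers moved in both directions. Of this list, 8 rose and 3 fell of 12 tested (median log2 fold change 0.24), beside 38.3% and 39.0% of all genes. Cdyl, a reader that binds G9a, rose from 350, 348 and 340 to 508, 520 and 555 (log2 fold change 0.61, adjusted p = 2.4e-07), and Mphosph8, a subunit of the HUSH silencing complex, rose from 411, 438 and 419 to 568, 597 and 602 (log2 fold change 0.48, adjusted p = 8.5e-07). Cbx5, which encodes the H3K9 reader HP1 alpha, fell from 1794, 1799 and 1775 to 1157, 1041 and 1020 (log2 fold change −0.74, adjusted p = 2.6e-07). Trim28 was at 1107, 1111 and 1167 against 1155, 1199 and 1214 (log2 fold change 0.08, adjusted p = 0.038).

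The 3 writers of H4K20 moved apart. Kmt5c, which trimethylates H4K20 in heterochromatin after Suv39h enzymes have marked H3K9, had the largest fall of all members. Kmt5c (ENSMUSG00000059851, chromosome 7, 4740115 to 4747514, plus strand) was at 304, 294 and 270 against 178, 141 and 142, or 289 ± 17.5 in WT and 154 ± 21.1 in CSE-KO (log2 fold change −0.92, SE 0.09, adjusted p = 5.1e-06). Its relative Kmt5b, also a di- and trimethylase, was at 657, 702 and 693 against 761, 747 and 747 (log2 fold change 0.14, SE 0.03, adjusted p = 0.0030). Kmt5a, the monomethylase that acts in mitosis, was at 779, 769 and 757 against 818, 847 and 862 (log2 fold change 0.13, SE 0.03, adjusted p = 0.0020). Kmt5a and Kmt5b rose by little, and both calls were lost with WT 1 to 3 counted as 1 sample and CSE-KO 2 and 3 as 1 sample (adjusted p = 0.087 and 0.053). Per exonic base, Kmt5c stood at 1.71, 1.54 and 1.44 times Kmt5b in WT and at 0.86, 0.70 and 0.70 times in CSE-KO. On this scale the order of the pair turned over between the groups. In normalized counts, Kmt5b was above Kmt5c in every library. The turnover thus rests on the annotated exon lengths, which may exceed the transcripts in these cells.

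Writers of H3K4 methylation fell in 6 of 7 genes, beside 39.0% of all tested genes. Their median log2 fold change was −0.26, beside −0.60 for the H3K9 writers. Sums of the H3K4 writers were 8013, 8227 and 8115 against 6850, 6285 and 6948. Kmt2d and Kmt2c encode the monomethylases of enhancers. Kmt2d was at 1860, 1824 and 1878 against 1339, 1182 and 1378 (log2 fold change −0.52, SE 0.06, adjusted p = 9.0e-05). Kmt2c was at 833, 884 and 838 against 746, 659 and 787 (log2 fold change −0.22, SE 0.06, adjusted p = 0.011). The call of Kmt2c was lost with WT counted as 1 sample (adjusted p = 0.11). Kmt2a (MLL1), which keeps developmental genes active, fell from 1901, 1932 and 1925 to 1602, 1444 and 1552 (log2 fold change −0.33, SE 0.03, adjusted p = 7.6e-06). Its relative Kmt2b was at 879, 928 and 824 against 785, 751 and 825 with overlapping groups (log2 fold change −0.16, SE 0.05, adjusted p = 0.013), and lost its call with equal totals (adjusted p = 0.131), without WT 2 (adjusted p = 0.0508) and without CSE-KO 2 (adjusted p = 0.0522). Setd1b and Setd1a encode the main promoter trimethylases. Setd1b was at 604, 656 and 660 against 479, 382 and 469 (log2 fold change −0.54, SE 0.09, adjusted p = 0.0012). Setd1a was at 423, 402 and 439 against 366, 342 and 350 (log2 fold change −0.26, SE 0.05, adjusted p = 0.00047). Exons of the model Gm49388 on the same strand cover 51.8% of the exonic bases of Setd1a, so its value is uncertain. The monomethylase Setd7, which also methylates many other proteins, was at 1513, 1601 and 1551 against 1533, 1525 and 1587 (log2 fold change −0.01, SE 0.03, adjusted p = 0.85; 95% interval −0.07 to 0.05) and rose with equal totals (log2 fold change 0.068, adjusted p = 0.035). CSE-KO 2 was the lowest library in each of the other 6 genes.

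H3K4 erasers fell in 4 of 6 genes and rose in 2, beside 39.0% and 38.3% of all tested genes. Kdm1a (LSD1), which removes mono- and dimethylation, was at 903, 844 and 920 against 683, 671 and 670 (log2 fold change −0.40, SE 0.04, adjusted p = 1.4e-06). Kdm1b, its relative, was at 239, 277 and 270 against 203, 196 and 221 (log2 fold change −0.34, SE 0.07, adjusted p = 0.0012). These flavin enzymes both fell without overlap. The Kdm5 enzymes, which remove trimethylation, split into pairs. Kdm5a was at 1123, 1126 and 1150 against 1370, 1421 and 1390 (log2 fold change 0.30, SE 0.02, adjusted p = 7.4e-07). Kdm5b was at 597, 610 and 595 against 712, 719 and 748 (log2 fold change 0.27, SE 0.03, adjusted p = 1.4e-05). Both rose without overlap. Kdm5c on the X chromosome was at 1355, 1397 and 1392 against 1222, 1240 and 1309 (log2 fold change −0.14, SE 0.03, adjusted p = 0.0014; adjusted p = 0.065 with equal totals). Its Y-linked relative Kdm5d was at 517, 514 and 523 against 371, 379 and 353 (log2 fold change −0.49, SE 0.04, adjusted p = 6.6e-07). Similar sequences of this pair could exchange reads, depending on how the authors counted. Xist was at 3 or below in each library and Y-linked genes were present in all 6. Of 3 other Y-linked genes, none fell. Ddx3y rose from 835, 850 and 790 to 1160, 1223 and 1199 (log2 fold change 0.53, adjusted p = 8.7e-08) and Eif2s3y from 307, 283 and 277 to 392, 403 and 400 (log2 fold change 0.46, adjusted p = 6.5e-06). Uty did not pass, at 391, 400 and 380 against 353, 405 and 388 (log2 fold change −0.03, adjusted p = 0.59). Per exonic base, Kdm5c stood at 5.59, 5.80 and 5.68 times Kdm5d in WT and at 7.03, 6.98 and 7.91 times in CSE-KO.

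Shared subunits of the H3K4 writer complexes also moved both ways, in that 5 rose and 6 fell of 12 tested (median log2 fold change −0.10), beside 38.3% and 39.0% of all genes. Men1 (menin), which ties KMT2A and KMT2B to chromatin, fell from 793, 802 and 835 to 476, 446 and 439 (log2 fold change −0.84, adjusted p = 1.1e-08). Cxxc1, which brings the SETD1 complexes to CpG islands, rose from 648, 634 and 615 to 945, 1000 and 1004 (log2 fold change 0.64, adjusted p = 2.6e-08). Paxip1, a subunit of the KMT2C and KMT2D complexes, fell from 521, 524 and 558 to 363, 371 and 353 (log2 fold change −0.56, adjusted p = 3.5e-07). In the LSD1 complexes, 2 rose and 6 fell of 11 tested (median log2 fold change −0.21), beside 38.3% and 39.0% of all genes. Gse1 showed the largest change there, from 236, 234 and 232 to 992, 1016 and 1106 (log2 fold change 2.15, adjusted p = 5.1e-11). Zmym3 fell from 562, 549 and 550 to 214, 180 and 169 (log2 fold change −1.57, adjusted p = 3.9e-08). Phf21a, a reader of unmethylated H3K4, fell from 686, 681 and 696 to 500, 445 and 454 (log2 fold change −0.56, adjusted p = 5.3e-07).

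At H3K27 neither writer passed the test. Ezh2, the catalytic subunit of Polycomb repressive complex 2 in dividing cells, was at 382, 407 and 379 against 372, 392 and 366 (log2 fold change −0.05, SE 0.05, adjusted p = 0.37; 95% interval −0.15 to 0.06). Ezh1, which is typical of resting cells, was at 579, 585 and 593 against 608, 572 and 570 (log2 fold change −0.01, SE 0.04, adjusted p = 0.88; 95% interval −0.09 to 0.07). The groups overlapped in both genes, while the proliferation marker Mki67 stood at 3155, 3086 and 3077 against 1057, 635 and 614. Per exonic base, Ezh2 was at 0.73, 0.78 and 0.71 times Ezh1 in WT and at 0.68, 0.76 and 0.72 times in CSE-KO. Kdm6b (JMJD3), an inducible H3K27 eraser, rose from 584, 602 and 642 to 667, 672 and 765 (log2 fold change 0.20, SE 0.06, adjusted p = 0.0095), with adjusted p = 0.079 when WT was counted as 1 sample. Kdm6a (UTX) was at 645, 586 and 593 against 595, 638 and 632 (log2 fold change 0.03, SE 0.04, adjusted p = 0.52; 95% interval −0.07 to 0.13), and it rose with equal totals (adjusted p = 0.048). Among the partners of the complex, 6 rose and 1 fell of 12 tested (median log2 fold change 0.08), beside 38.3% and 39.0% of all genes. The accessory subunit Phf19 fell from 257, 267 and 249 to 64, 36 and 35 (log2 fold change −2.56, adjusted p = 2.7e-05). Aebp2 rose from 690, 725 and 725 to 979, 1033 and 1070 (log2 fold change 0.53, adjusted p = 2.1e-07), and Lcor rose from 515, 511 and 537 to 842, 842 and 877 (log2 fold change 0.71, adjusted p = 1.1e-08). Of the core subunits, Suz12 narrowly missed the threshold, at 790, 793 and 782 against 857, 826 and 805 (log2 fold change 0.07). Eed rose from 414, 380 and 396 to 454, 450 and 479 (log2 fold change 0.22, adjusted p = 0.0011).

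Writers of H3K36 fell in 3 of 4 genes, beside 39.0% of all tested genes. Nsd2, a dimethylase, was at 1568, 1610 and 1572 against 1216, 1139 and 1200 (log2 fold change −0.42, SE 0.03, adjusted p = 1.6e-07). Nsd1, the broad dimethylase of intergenic chromatin, was at 1955, 2025 and 1950 against 1633, 1556 and 1544 (log2 fold change −0.33, SE 0.03, adjusted p = 7.7e-07). Nsd3 did not pass, at 1243, 1268 and 1272 against 1246, 1318 and 1346 (log2 fold change 0.05, SE 0.03, adjusted p = 0.18; 95% interval −0.02 to 0.11). It rose with equal totals (adjusted p = 0.0036), with upper-quartile scaling (adjusted p = 0.014) and without CSE-KO 1 (adjusted p = 0.013). Setd2, the trimethylase that travels with RNA polymerase, was at 1480, 1496 and 1507 against 1420, 1369 and 1463 (log2 fold change −0.08, SE 0.03, adjusted p = 0.023). Its log2 fold change was −0.0031 with equal totals. The call was lost there and without WT 2, WT 3 or CSE-KO 2 (adjusted p between 0.0594 and 0.0958). Of the erasers listed for H3K36 alone, Kdm2b, which also anchors a Polycomb complex at CpG islands, fell from 294, 304 and 284 to 206, 231 and 198 (log2 fold change −0.48, SE 0.07, adjusted p = 5.3e-05). Kdm2a, its relative, fell from 1471, 1474 and 1498 to 1355, 1341 and 1369 (log2 fold change −0.13, SE 0.02, adjusted p = 0.00028). Both fell without overlap between groups, with sums of 1765, 1778 and 1782 against 1561, 1572 and 1567. The Kdm4 genes, which act on H3K36 as well as H3K9, went the other way in sum. Their sums were 1861, 1824 and 1943 against 2224, 2385 and 2395, so erasers of H3K36 moved in both directions.

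Dot1l, the writer of H3K79 methylation, had the largest called rise of the writers. Dot1l (ENSMUSG00000061589, chromosome 10, 80755206 to 80795461, plus strand) was at 847, 824 and 876 against 1149, 1169 and 1251, or 849 ± 26.1 in WT and 1189.7 ± 54.0 in CSE-KO (log2 fold change 0.49, SE 0.04, adjusted p = 3.4e-07). Its lowest CSE-KO library lay above its highest WT library. Its partners were mixed, in that 2 rose and 4 fell of 7 tested (median log2 fold change −0.14), beside 38.3% and 39.0% of all genes. The elongation factor gene Aff4 rose from 1735, 1730 and 1675 to 2387, 2406 and 2438 (log2 fold change 0.49, adjusted p = 7.0e-09), and Aff1 from 1280, 1345 and 1341 to 1682, 1669 and 1807 (log2 fold change 0.38, adjusted p = 1.4e-06). Mllt6 fell from 732, 685 and 699 to 486, 480 and 486 (log2 fold change −0.54, adjusted p = 1.1e-07).

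Among members with no clear histone site, Kmt2e showed the strongest change. Kmt2e (ENSMUSG00000029004, chromosome 5, 23434441 to 23504235, plus strand), a relative of the H3K4 writers whose SET domain is thought to be inactive, was at 1836, 1812 and 1785 against 1069, 971 and 1045, or 1811 ± 25.5 in WT and 1028 ± 51.1 in CSE-KO (log2 fold change −0.82, SE 0.03, adjusted p = 4.7e-09). Exons of Srpk2 on the opposite strand cover part of it (9.31% of its exonic bases). Setd5 fell from 1561, 1565 and 1592 to 1247, 1220 and 1337 (log2 fold change −0.31, adjusted p = 5.0e-06). Setd3, which methylates a histidine of actin, fell from 723, 733 and 754 to 682, 680 and 666 (log2 fold change −0.12, adjusted p = 0.0032), with adjusted p = 0.16 under equal totals. Setd6, which methylates the NF-kB subunit RELA, did not pass, at 133, 134 and 114 against 129, 116 and 118 (log2 fold change −0.07, adjusted p = 0.53). Setd4 did not pass, at 28, 26 and 44 against 42, 40 and 47 (log2 fold change 0.43, adjusted p = 0.083; adjusted p = 0.0088 without WT 3 and 0.044 with equal totals). Kdm8, which now counts as a hydroxylase and peptidase rather than a demethylase, was at 156, 142 and 137 against 123, 113 and 126 (log2 fold change −0.26, adjusted p = 0.016). Its call was lost without WT 1 and without CSE-KO 2 (adjusted p = 0.0705 and 0.0568), and with equal totals (adjusted p = 0.0609).

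Summed over each class, writers were lower in each CSE-KO library than in any WT library, and erasers were not. Writer sums were 25683, 26061 and 25890 against 21932, 20922 and 22009. Eraser sums were 12800, 12768 and 13035 against 12628, 12927 and 13199. Writers per eraser therefore stood at 2.01, 2.04 and 1.99 in WT against 1.74, 1.62 and 1.67 in CSE-KO, with no overlap between groups. The eraser sums of the groups overlapped. As a share of all normalized counts, writers made up between 0.425% and 0.432% in WT and between 0.367% and 0.382% in CSE-KO, and erasers between 0.212% and 0.215% in WT and between 0.219% and 0.229% in CSE-KO. All CSE-KO libraries lay below all WT libraries in 18 of 28 writers (64.3%) and 8 of the 17 tested erasers (47.1%), beside 40.4% of all tested genes. They lay above in 3 writers (10.7%) and 5 erasers (29.4%), beside 40.0%. Over the 36 changed members, CSE-KO 1 was the nearest CSE-KO library to WT in 20, CSE-KO 3 in 11 and CSE-KO 2 in 5. Without CSE-KO 1, 27 members fell and 10 rose.

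**Figure D4:**
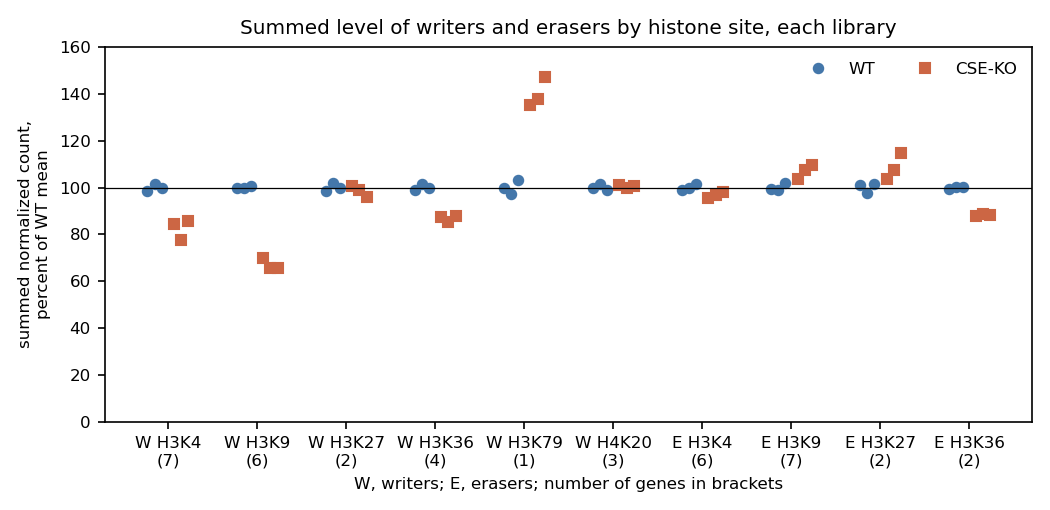
Summed normalized counts of writers (W) and erasers (E) by histone site in each library, as a percent of the WT mean (vertical axis, from 0). The number of genes is in brackets. Genes of 2 eraser sites are drawn under H3K9, so the Kdm4 genes are not under H3K36. H3K9 writers lie lowest in CSE-KO at 65.5% to 69.8%, H3K79 (Dot1l alone) lies highest at 135% to 147%, and H3K27 and H4K20 writers lie between 96.0% and 101% in CSE-KO.

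Per kilobase of exon, the members covered a wide range of levels, and the order changed at the top. In WT, Ehmt2 stood highest at 217 ± 2.10 normalized counts per kilobase (mean ± SD, n = 3), then Kdm5c at 194 ± 3.23. Kmt2e at 173 ± 2.44, Kdm4a at 173 ± 4.25 and Kdm1a at 172 ± 7.70 followed and did not differ beyond their spread. In CSE-KO, Kdm4a came first at 223 ± 10.4, followed by Kdm5c at 177 ± 6.46 and Kmt5a at 159 ± 4.21, and Ehmt2 was at 135 ± 6.29. The lowest members were Setd4 (6.07 ± 1.83 in WT) and Kdm4d (0.583 ± 0.404 in WT). Lengths are those of all annotated exons of a gene, which may exceed the transcripts in these cells.

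Enzymes that make or use the cofactors of these genes were read from fixed lists. Of the S-adenosylmethionine supply genes, 4 rose and 3 fell of 11 tested (median log2 fold change −0.01), beside 38.3% and 39.0% of all genes. Nnmt, which spends S-adenosylmethionine on nicotinamide, rose from 155, 143 and 155 to 293, 302 and 282 (log2 fold change 0.95, adjusted p = 1.2e-07). Mtrr, which reactivates methionine synthase, rose from 259, 279 and 286 to 459, 485 and 529 (log2 fold change 0.84, adjusted p = 2.2e-07). Mat2a, the S-adenosylmethionine synthase outside the liver, fell from 1008, 983 and 963 to 881, 905 and 886 (log2 fold change −0.14, adjusted p = 0.00065). Of the enzymes that make or consume 2-oxoglutarate, succinate or fumarate, which set the supply of JmjC erasers and of their inhibitors, 1 rose and 12 fell of 15 tested (median log2 fold change −0.21), beside 38.3% and 39.0% of all genes. Ogdh fell from 1457, 1410 and 1418 to 1077, 1039 and 1041 (log2 fold change −0.44, adjusted p = 5.1e-08). Glud1 fell from 1610, 1529 and 1549 to 1258, 1200 and 1224 (log2 fold change −0.35, adjusted p = 5.7e-07). Idh1 fell from 600, 623 and 610 to 398, 342 and 331 (log2 fold change −0.78, adjusted p = 1.4e-06). Of the JmjC genes outside the Kdm names, 7 rose and 3 fell of 13 tested (median log2 fold change 0.31), beside 38.3% and 39.0% of all genes. The 3 that fell were Jmjd8 (log2 fold change −1.16, adjusted p = 5.4e-06), Phf8 (−0.13, adjusted p = 0.0053) and Phf2 (−0.13, adjusted p = 0.018). Among those that rose were Jmjd1c, a relative of Kdm3a, from 1587, 1565 and 1562 to 2272, 2272 and 2336 (log2 fold change 0.55, adjusted p = 2.9e-09), Hspbap1 from 162, 182 and 172 to 356, 400 and 371 (log2 fold change 1.12, adjusted p = 4.2e-08) and Jmjd6 from 531, 475 and 494 to 723, 786 and 788 (log2 fold change 0.61, adjusted p = 5.3e-07).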

How the data were processed

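RNA sequencing covered 6 libraries, 3 labelled WT and 3 labelled CSE-KO. Per the labels' protocols, stranded mRNA libraries were made from 300 ng of total RNA and sequenced on a NextSeq 500 as single ends of 75 bp. The submitters' processing notes name DESeq2 1.26.0, featureCounts 1.6.5, STAR 2.7.3a, Trimmomatic 0.39 and Picard 2.21.7 and build mm10, without role or order. The values the authors deposited are a whole-number score per gene, read here as normalized counts, that is counts divided by a library factor and rounded. No source states this unit. It was inferred from recomputed size factors between 1.003 and 1.008 and from whole numbers that some libraries never use, so the depth in reads is only approximated by the totals.

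Values were tested as log2(value + 0.5) with limma 3.58.1 in R 4.3.3 (group effect, mean trend, robust variances, two-sided) in the 13750 genes with at least 10 in at least 3 libraries. Adjusted p-values follow Benjamini and Hochberg over the genes tested, and those under 0.05 were called. The fold change on this scale understates that of low genes. Means are given with SD over 3 libraries. Exonic lengths came from GENCODE mouse release 21, in which 18940 of 18956 IDs and all 46 members were found. Alternatives changed the scaling, filter, pseudocount, variance model, null fold, replicate block, the counting of alike libraries as 1 sample, and left out each library. Values in every library are given for members past 1.5-fold and for sets of close relatives, and of each fixed list up to 3 genes with the smallest adjusted p are named; other list genes named were chosen after their values were seen. A gene that this rule names is not reported here. The members and lists were chosen with earlier results of these data known.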

Additional observations from a re-analysis of the deposited data

How the results depend on the processing

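The count of changed members was 36 as reported and between 30 and 37 under every alternative but one. The exception was the test against a fold of 1.2, which called 17 members (3 rose and 14 fell) and 6711 of all genes (48.8%). Leaving out each library in turn gave between 32 and 37 changed members. The median log2 fold change of writers was −0.21 with equal totals and −0.23 with upper-quartile scaling, against −0.28 as reported, and scaling to equal totals moved the median of all genes to 0.075. Setd7 did not pass as reported (log2 fold change −0.01) and rose by 0.068 with equal totals. Of the 36 changed members, 26 passed in every setting but the test against a fold of 1.2, and the other 10 (Kdm3a, Kdm5c, Kdm6b, Kdm8, Kmt2b, Kmt2c, Kmt5a, Kmt5b, Setd2 and Setd3) did not pass in at least 1 of those. Labels share replicate numbers, but same-numbered libraries did not deviate together (correlations between −0.00023 and 0.012). By the rough reference above, WT libraries differed by about counting noise or less, so this check cannot tell whether the numbers pair libraries. With the replicate number as a block, 36 members changed (27 fell and 9 rose). The depth in reads is not known, and Kdm4d and Setd4 are the members whose low values limit precision most.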

Other observations

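Neighbouring enzyme families that use the same methyl donor were read from lists outside the members. Of the arginine methyltransferases and partners, 6 rose and 3 fell of 10 tested (median log2 fold change 0.15). Prmt2 rose from 252, 262 and 250 to 419, 428 and 425 (log2 fold change 0.73, adjusted p = 6.0e-08). Prmt3, which methylates a ribosomal protein, rose from 303, 320 and 305 to 477, 491 and 479 (log2 fold change 0.64, adjusted p = 1.1e-07). Prmt6, which methylates H3R2, rose from 229, 239 and 226 to 352, 360 and 336 (log2 fold change 0.59, adjusted p = 1.1e-06). Carm1, a coactivator that methylates H3R17, fell from 998, 1015 and 1032 to 813, 832 and 794 (log2 fold change −0.32, adjusted p = 1.5e-06). Among lysine methyltransferases outside the member names, 6 rose and 3 fell of 11 tested (median log2 fold change 0.12). Prdm2 (log2 fold change 0.12, adjusted p = 0.046) and Mecom (0.20, adjusted p = 0.018) were among the rises. Prdm16 did not pass (log2 fold change 0.03, adjusted p = 0.82). Smyd2 fell from 935, 879 and 914 to 605, 496 and 534 (log2 fold change −0.74, adjusted p = 2.2e-05) and Smyd3 rose from 118, 105 and 110 to 202, 163 and 175 (log2 fold change 0.69, adjusted p = 4.5e-05), so these relatives moved in opposite directions. Setmar fell from 36, 35 and 38 to 16, 14 and 18 (log2 fold change −1.16, adjusted p = 0.00019), and Ash1l, an H3K36 dimethylase, did not pass (from 1608, 1732 and 1647 to 1642, 1594 and 1688, log2 fold change −0.02, adjusted p = 0.61). Of all tested genes, 38.3% rose and 39.0% fell.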
